A study of Mus musculus with 3 samples.

Results

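A group of 9 transcription factor genes was described in sorted cells of the mouse spleen. They were the Id genes Id1, Id2 and Id3, the E-protein genes Tcf3, Tcf4 and Tcf12, the repressor genes Bhlhe40 and Bhlhe41, and the zinc finger gene Zeb2. The members were all probe sets of the array whose platform annotation gives 1 of these symbols alone, in its current or older form. They came to 27 probe sets for 9 genes, out of 45037 probe sets and 18193 genes with a symbol. RNA had been measured on 3 Affymetrix arrays, 1 for each sorted population of adult mice. The populations were monocytes not expressing Spic, monocytes expressing Spic, and red pulp macrophages. All 3 carried the genotype Spic(igfp/+), in which 1 Spic allele bears a green fluorescent protein (GFP) reporter, so even the Spic-negative cells are heterozygous for the modified allele, and no wild-type or untreated comparison group was analysed here. Monocytes were sorted as CD11b+ Ly6c+ and divided by the reporter after bead depletion of cells bearing CD4, CD8 or B220, and macrophages were sorted as F4/80 hi Spic-EGFP hi. How many animals contributed to an array was not stated. The series asks how macrophages that recycle iron arise from monocytes.

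Basic helix-loop-helix (bHLH) factors bind DNA in pairs at the E-box, a short motif written CANNTG. E proteins are the broadly expressed partners of such pairs. Id proteins have the pairing domain but no DNA-binding region, so a pair that contains an Id protein cannot bind, and the balance of Id to E protein sets how much E protein is active. Bhlhe40 and Bhlhe41 repress at E-boxes and are part of the feedback of the circadian clock. Zeb2 is a zinc finger repressor that binds a pair of E-box-like sites and takes part in the development of monocytes, macrophages and other myeloid cells. In the mouse, Id2 is needed for natural killer (NK) cells, innate lymphoid cells and a class of dendritic cells, and Tcf4 for plasmacytoid dendritic cells.

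A promoter window of 300 bases, from 250 before to 50 after the annotated start, was matched for 6 of the 9 members in RefSeq sequence of the GRCm38.p6 assembly, in 11 windows. Id1, Tcf4 and Bhlhe40 had no window in the search, which left out 1 chromosome. Of the members with a window, Id2, Id3, Tcf3 and Zeb2 are shown as examples. Each is written 5′ to 3′ on the strand of its gene, and capitals mark every match to CANNTG. The Id2 window lies at chr12:25096043-25096342 on the minus strand, the Id3 window at chr4:136143572-136143871 on the plus strand, the Tcf3 window at chr10:80433586-80433885 on the minus strand, and the outermost of 4 Zeb2 windows at chr2:45117393-45117692 on the minus strand.
Id2: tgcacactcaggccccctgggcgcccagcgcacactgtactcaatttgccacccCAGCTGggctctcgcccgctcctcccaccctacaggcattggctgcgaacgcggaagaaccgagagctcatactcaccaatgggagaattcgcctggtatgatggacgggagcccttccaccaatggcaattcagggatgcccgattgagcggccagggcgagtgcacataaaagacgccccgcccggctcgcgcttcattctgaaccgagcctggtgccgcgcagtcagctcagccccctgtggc
Id3: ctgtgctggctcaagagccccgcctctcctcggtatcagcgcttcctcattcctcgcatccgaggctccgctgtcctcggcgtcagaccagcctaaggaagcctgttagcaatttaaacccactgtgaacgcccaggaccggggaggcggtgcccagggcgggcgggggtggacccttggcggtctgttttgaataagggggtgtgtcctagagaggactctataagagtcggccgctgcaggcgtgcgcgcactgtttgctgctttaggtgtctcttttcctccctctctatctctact
Tcf3: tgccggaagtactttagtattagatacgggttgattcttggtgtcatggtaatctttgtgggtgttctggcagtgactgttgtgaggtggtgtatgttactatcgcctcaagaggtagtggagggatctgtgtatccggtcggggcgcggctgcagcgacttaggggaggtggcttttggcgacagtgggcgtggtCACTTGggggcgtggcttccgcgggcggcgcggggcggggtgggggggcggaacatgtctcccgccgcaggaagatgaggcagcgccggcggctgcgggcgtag
Zeb2: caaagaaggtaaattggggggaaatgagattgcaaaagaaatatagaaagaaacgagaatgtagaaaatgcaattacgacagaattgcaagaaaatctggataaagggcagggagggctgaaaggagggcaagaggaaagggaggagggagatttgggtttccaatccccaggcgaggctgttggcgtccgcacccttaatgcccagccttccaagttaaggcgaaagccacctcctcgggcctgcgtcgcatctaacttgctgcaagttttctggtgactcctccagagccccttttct
The Id2 window held 1 E-box, CAGCTG, whose first base is at position -196 from the start. The Tcf3 window held 1 E-box, CACTTG, with its first base at position -54. Neither the Id3 window nor any of the 4 Zeb2 windows held a match to CANNTG. The window of Bhlhe41 held 4 matches, 1 of them CACGTG. As a pattern, CANNTG reads the same on both strands, contains the other motifs searched, and was found in 72.3% of 32851 promoter windows of the same length. The share was 7.15% for CACGTG, 16.3% for CAGCTG, and 20.2% for CACCTG or its reverse complement CAGGTG. A match describes the letters of a window and does not show binding.

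Levels are log2 expression values as the authors deposited them, so a difference of 1 is 2-fold. Each group had 1 array. No spread between animals could be estimated, no test was possible, and differences are given by size only. Genes were compared when they exceeded a floor of 5.02, which is the median over the 3 arrays of every non-control probe set, and a gene was represented by its brightest probe set unless another is named. On at least 1 array, 12375 of 18193 genes, 24 of the 27 member probe sets and 8 of the 9 member genes were above it, Bhlhe41 being the exception. Those 8 genes were above it on all 3 arrays. In such bulk samples, fewer cells of a type and less RNA per cell cannot be told apart. All 3 comparisons use the same 3 arrays, each array in 2 of them, so their values are not independent.

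Some features of the arrays and sorts touch every comparison below. Spic itself was measured at 5.66 on the Spic-negative array, 9.22 on the Spic-positive array and 12.23 for macrophages, which follows the labels. Adgre1, which encodes F4/80, was at 10.77, 10.67 and 12.50, and Itgam, which encodes CD11b, at 8.68, 7.38 and 5.23 in the same order. The 18 hybridization controls of the Spic-positive array had a median 2.16 log2 above those of the Spic-negative array. The 3' minus 5' difference of Gapdh probe sets was 0.48, 2.25 and 1.61 in the same order of arrays, and that of Actb was 0.74, 0.57 and 1.13. The macrophage array also differed in sex-linked RNA, with Xist at 11.95 against 4.63 and 4.70 on the monocyte arrays. The Y-linked Eif2s3y was at 10.10, 9.56 and 3.31, and Kdm5d at 7.25, 6.49 and 2.52, in the order above. The RNA thus reads as female on the macrophage array and male on both monocyte arrays. Sex and cell type cannot be told apart in any macrophage comparison. Erythroid markers moved with the macrophage array. Of 12 measured, 10 were at least 2-fold higher there than on either monocyte array, and the summed level was 52.7, 55.2 and 108.7. Klf1, Slc4a1, Car1, Car2 and Rhag were under the floor on both monocyte arrays. Of 11 NK and innate lymphoid markers, 6 were at least 2-fold higher on the macrophage array than on the Spic-negative array, with summed levels of 52.0, 53.7 and 75.1. Gzma and Eomes were under the floor on both monocyte arrays and at 9.24 and 8.10 on the macrophage array. Klrk1 was lowest in macrophages, at 7.12, 7.55 and 6.61, and Tbx21 and Gata3 were under the floor on all arrays. Of 12 B cell markers, 10 were higher by 2-fold or more on the Spic-positive than on the Spic-negative array, with summed levels of 66.4, 86.4 and 80.9. Cd79a, Pax5 and Ebf1 were under the floor on the Spic-negative array, and none of the 12 was under it on the Spic-positive array. Plasma cell markers had 4 of 7 at least 2-fold higher on the macrophage than on either monocyte array, with summed levels of 60.1, 61.8 and 71.4. Neutrophil markers, 11 in number, summed to 108.0, 109.2 and 104.8, and all 11 were above the floor on both monocyte arrays. By 2-fold or more, 1 was higher and 1 lower on the Spic-positive than on the Spic-negative array. On the macrophage array 2 were higher and 3 lower than on the Spic-negative array, and the same counts held against the Spic-positive array. The part of these cell markers, control levels and sex-linked differences in the results for the 9 genes was not tested.

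**Figure D1:**
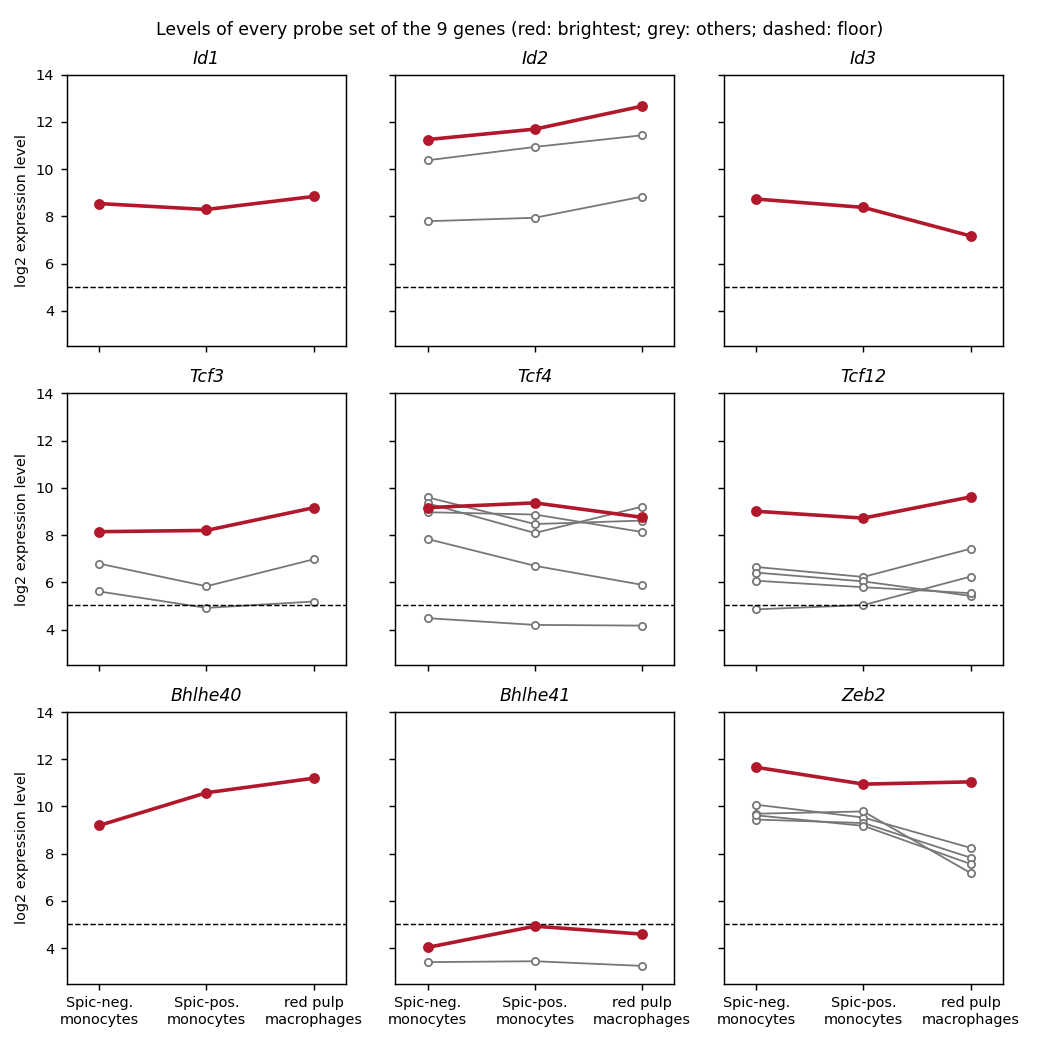
Log2 expression level of each of the 27 probe sets (vertical axis) on the 3 arrays (horizontal axis), 1 panel per gene. The red line is the brightest probe set of a gene, grey lines are its others, and the dashed line is the floor at 5.02. Id2 and Bhlhe40 are higher at each step from left to right on every probe set, Id3 is lower at each step, and the probe sets of Tcf4, Tcf12 and Zeb2 do not run together.

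Between Spic-positive and Spic-negative monocytes, 1 of 8 member genes, Bhlhe40, was at least 2-fold higher by its brightest probe set, against 3.49% of all genes, and 0 of 8 were at least 2-fold lower, against 3.06% of all genes. Tcf4 is not in that count, although 3 of its 5 probe sets above the floor were more than 2-fold lower. The median difference of the 8 genes was -0.10, and that of all genes was -0.06. The macrophage array stood further away. Compared with Spic-negative monocytes, 3 of 8 genes were at least 2-fold higher in macrophages, namely Bhlhe40, Id2 and Tcf3, where 19.6% of all genes were. Id3 alone was at least 2-fold lower, where 11.3% of all genes were. Compared with Spic-positive monocytes, 0 of 8 genes were at least 2-fold higher in macrophages, against 22.0% of all genes, and 1 of 8, again Id3, was at least 2-fold lower, against 11.6%. Several genes lay just inside that limit, with Id2 at 0.97, Tcf3 at 0.96 and Tcf12 at 0.90. The members' median difference was 0.45 against Spic-negative and 0.58 against Spic-positive monocytes, where all genes had 0.03 and 0.10. Without regard to direction, the median size of the difference was 0.32 for members and 0.31 for all genes between the monocytes, and 0.82 against 0.61 for macrophages against Spic-negative monocytes. It was 0.76 against 0.70 for macrophages against Spic-positive monocytes.

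**Figure D2:**
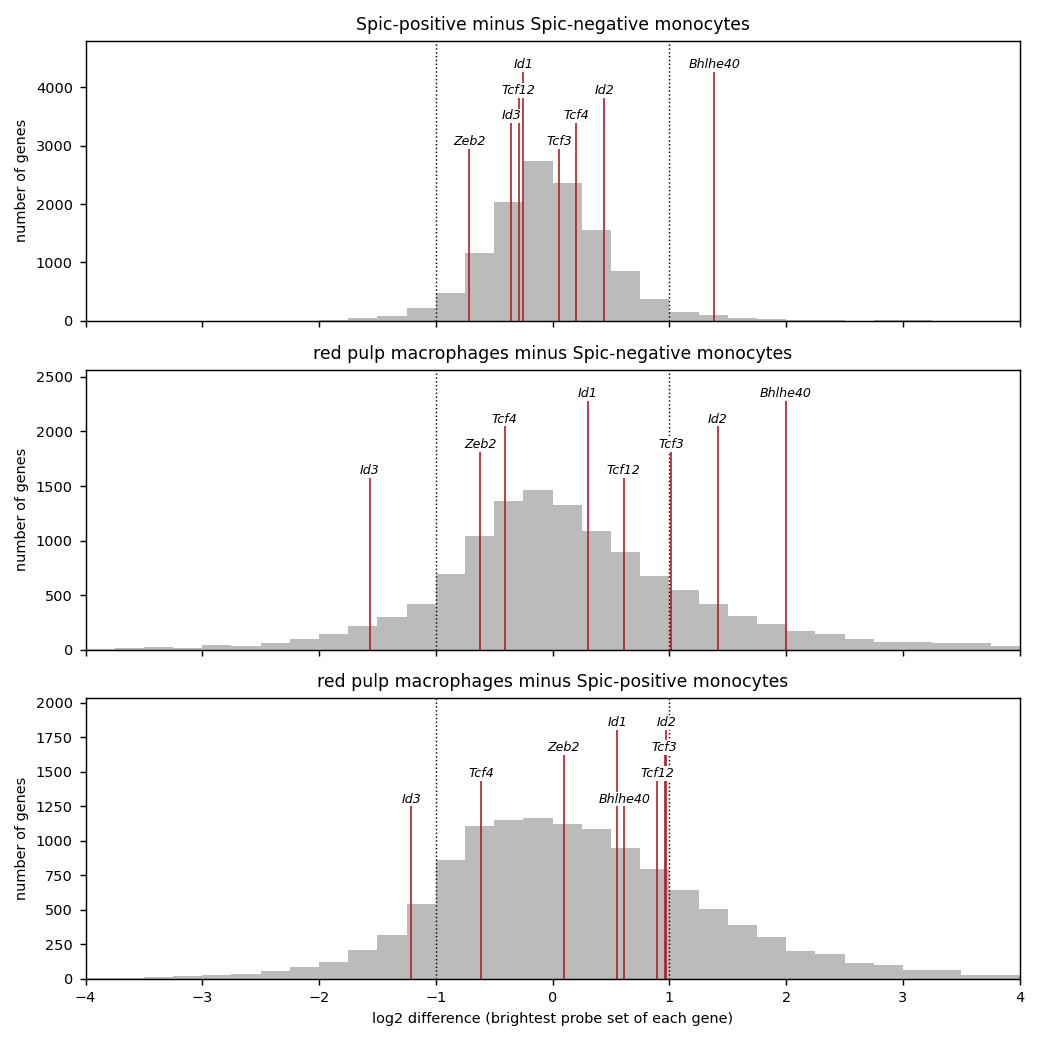
Number of genes (vertical axis) by log2 difference of the brightest probe set in bins of 0.25 (horizontal axis) for the 3 comparisons, with the 8 member genes above the floor as red lines and the 2-fold limits dotted. The axis ends at 4 in each direction, which leaves out 8, 220 and 158 of 12375 genes from top to bottom. Bhlhe40 stands in the right flank of the top panel at 1.38, and Id3 in the left flank of the other panels at -1.57 and -1.21.

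Among the Id genes, Id2 and Id3 lay in opposite directions in macrophages. Id2, which is highly expressed in many myeloid and innate lymphoid cells, had 3 probe sets. The brightest (1435176_a_at) was at 11.25 on the Spic-negative array, 11.69 on the Spic-positive array and 12.66 on the macrophage array. The next (1422537_a_at) was at 10.37, 10.94 and 11.43, and the dimmest (1453596_at) at 7.79, 7.94 and 8.83. All 3 probe sets were lowest in Spic-negative monocytes and highest in macrophages. The differences of macrophages from Spic-negative monocytes were 1.42, 1.06 and 1.04, so all 3 passed 2-fold, and the brightest gave 2.67-fold. Of all genes, 12.8% were higher by at least as much. From Spic-positive monocytes the macrophage differences were 0.97, 0.49 and 0.89, under 2-fold on each probe set. NK and innate lymphoid cells also express Id2, and some but not all of their markers were higher on the macrophage array, as given above. The part of such cells in the Id2 levels was not tested.

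Id3, an Id gene that responds to BMP and TGF-beta signals in many cells, had 1 probe set (1416630_at). It was at 8.73 and 8.38 on the Spic-negative and Spic-positive arrays and at 7.17 on the macrophage array. The macrophage array was the low one, and the monocyte arrays were close together. Macrophages differed by -1.57 from Spic-negative and by -1.21 from Spic-positive monocytes, which is 2.96-fold and 2.31-fold lower. Of all genes, 5.03% and 7.72% were lower by at least as much. Id1, a relative of Id3 induced by the same signals, was at 8.54, 8.29 and 8.84 on its single probe set (1425895_a_at). Its levels spanned 0.55, and no comparison reached 2-fold.

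The E-protein genes gave different answers by probe set. Tcf3, which encodes the E12 and E47 proteins and is required for B cell development, had 3 probe sets. The brightest (1426297_at) was at 8.14 and 8.20 on the Spic-negative and Spic-positive arrays and at 9.16 in macrophages. The second (1427764_a_at) was at 6.79, 5.83 and 6.97, and the third (1452542_x_at) at 5.61, 4.92 and 5.18, near the floor. The macrophage array was thus highest on the first and second but not on the third. The macrophage difference from Spic-negative monocytes was 1.01, 0.18 and -0.43 on the 3 probe sets, so the 2-fold count for Tcf3 rests on the brightest alone, with 2.02-fold. It was lost, at 0.95, when the arrays were quantile normalized again. Against Spic-positive monocytes all 3 were higher in macrophages, by 0.96, 1.14 and 0.27. Between the monocytes the dimmer pair was lower in Spic-positive cells, at -0.96 and -0.70, and the brightest was at 0.05.

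Tcf12, which encodes the E protein HEB, had 5 probe sets. The brightest (1427670_a_at) was at 9.01, 8.72 and 9.61, and the second (1421908_a_at) at 6.65, 6.22 and 7.42, in the order Spic-negative monocytes, Spic-positive monocytes and macrophages. Both were highest in macrophages and lowest in Spic-positive monocytes. Another of low level (1439619_at) was at 4.85, 5.03 and 6.24, also highest in macrophages. The remaining 2 ran the other way, at 6.41, 6.04 and 5.42 (1439209_at) and at 6.07, 5.79 and 5.54 (1446294_at). Macrophages thus differed from Spic-negative monocytes by 0.61, 0.77 and 1.39 on the former probe sets and by -0.99 and -0.53 on the latter. No direction for Tcf12 in macrophages held for all of its probe sets.

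Tcf4, which encodes E2-2, had 6 probe sets, of which 1 (1416725_at) was under the floor on all arrays. The brightest (1416724_x_at) was at 9.16, 9.36 and 8.75, and its name ends in _x_at, which the manufacturer gives to probe sets that may also detect other transcripts. Of the 4 others above the floor, 1434148_at was at 9.59, 8.47 and 8.61, and 1416723_at at 9.34, 8.09 and 9.20. These were highest in Spic-negative monocytes. Probe set 1434149_at was at 7.83, 6.70 and 5.89, and 1424089_a_at at 8.96, 8.87 and 8.13, and both were lowest in macrophages. Between the monocytes the 3 probe sets 1434148_at, 1416723_at and 1434149_at were lower in Spic-positive cells by more than 2-fold, with differences of -1.13, -1.25 and -1.13, and the brightest was at 0.20. The gap of 1.33 between the differences of the brightest and the second was reached by 2.93% of 5490 genes with at least 2 probe sets above the floor, where the median gap was 0.36. In macrophages against Spic-negative monocytes all 5 probe sets above the floor were lower, from -0.14 to -1.94, and 1 passed 2-fold. Plasmacytoid dendritic cells depend on Tcf4. Of 10 of their markers, 3 were higher by 2-fold or more on the Spic-positive than on the Spic-negative array and 0 were lower, with summed levels of 68.0, 76.2 and 78.8. Siglech, 1 of these markers, was at 5.02, 5.70 and 6.61.

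**Figure D3:**
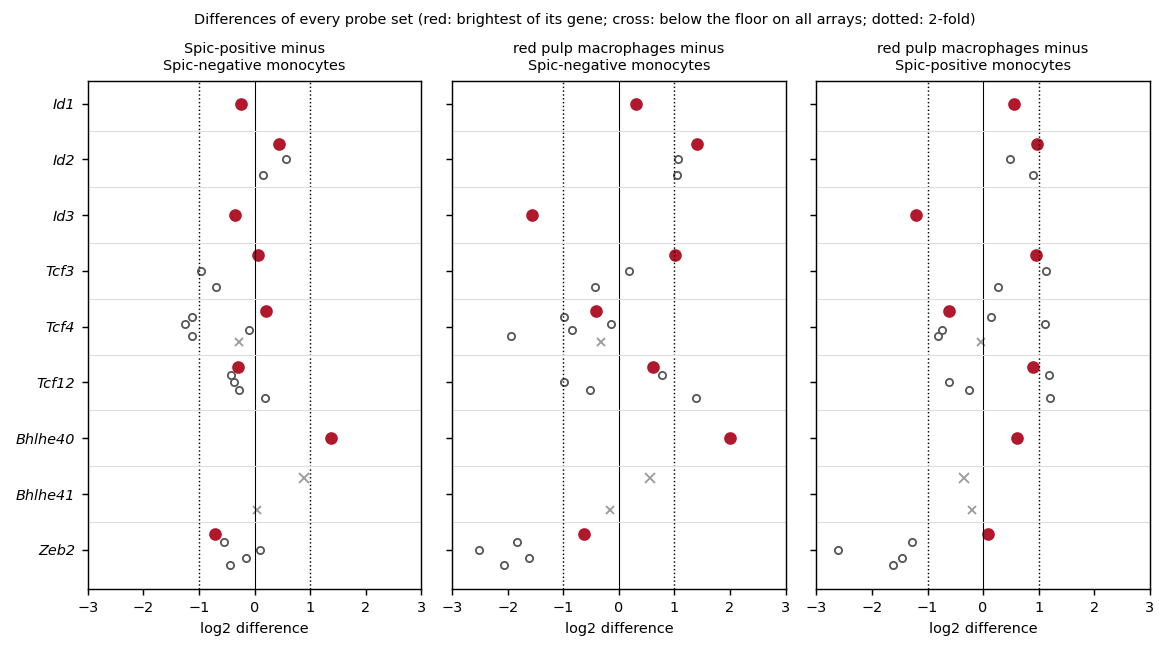
Log2 difference (horizontal axis) of each member probe set, by gene (vertical axis), for the 3 comparisons. Red points are the brightest probe set of a gene, open circles its others, crosses those under the floor on all arrays, and dotted lines mark 2-fold. For Zeb2 the brightest lies apart from 4 others on the left of both macrophage panels, and for Tcf4 3 open circles lie left of the 2-fold line in the monocyte panel.

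Bhlhe40, also called DEC1, is a repressor that limits Il10 expression in mouse T cells and myeloid cells. Its single probe set (1418025_at) was at 9.20 on the Spic-negative array, 10.58 on the Spic-positive array and 11.20 on the macrophage array. The Spic-positive array lay between the other 2 and closer to the macrophages. Spic-positive monocytes exceeded Spic-negative ones 2.61-fold, a difference of 1.38 that 1.68% of all genes reached. In macrophages it was 4.0-fold higher than in Spic-negative monocytes, a difference of 2.0 that 7.39% of all genes reached, and 1.53-fold higher than in Spic-positive monocytes. A single probe set gives no second reading of these values. Genes of like profile were to be named for any member whose brightest probe set spanned 4-fold over the 3 arrays, and none did. Zeb2 passed that limit on 2 dimmer probe sets, which were not used, with log2 spans of 2.61 (1458941_at) and 2.06 (1454200_at). By the brightest probe set Bhlhe40 came nearest, just under the limit. The genes nearest to its profile were looked up after its values were seen. By Euclidean distance between profiles centred on their own mean over the 3 arrays, they were Cldn7 at 0.08, Rras2 at 0.09 and Fcrla at 0.11. Fcrla is 1 of the 12 B cell markers above. Cldn7 was at 3.83, 5.17 and 5.71, and so crossed the floor.

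Bhlhe41, also called DEC2 and closely related to Bhlhe40, stayed under the floor on both probe sets. It was at 4.04, 4.93 and 4.60 on the brighter (1457096_at) and at 3.41, 3.45 and 3.25 on the other (1421099_at). At levels near background no difference can be read from these values.

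Zeb2 was lower in macrophages on 4 of its 5 probe sets by more than 2-fold, while the brightest differed less. The brightest (1422748_at) was at 11.66, 10.95 and 11.04 in Spic-negative monocytes, Spic-positive monocytes and macrophages. Probe set 1456389_at was at 10.08, 9.53 and 8.25, and 1458941_at at 9.70, 9.79 and 7.18. Macrophages were the lowest of the 3 arrays on both. Probe set 1454200_at was at 9.63, 9.18 and 7.57, and 1434298_at at 9.45, 9.30 and 7.83. These 2 were lowest in macrophages as well. On the 4 dimmer probe sets the macrophage difference from Spic-negative monocytes ran from -1.61 to -2.51, and from Spic-positive monocytes from -1.29 to -2.61. The brightest gave -0.62 and 0.10. Zeb2 was therefore not counted as 2-fold lower at the level of genes, although most of its probe sets were. The gap of 1.21 between the brightest and the second brightest, in the difference of macrophages from Spic-negative monocytes, was reached by 19.8% of the 5490 genes. Between the monocytes 4 of 5 probe sets, the brightest included, were lower in Spic-positive cells, from -0.15 to -0.71, and 1 was at 0.09. Which transcript or which end of a transcript each probe set reads was not tested. Against Spic-negative monocytes all 5 probe sets were lower in macrophages and disagreed only in size. Against Spic-positive monocytes they also disagreed in direction, with 4 lower and the brightest slightly higher. The Gapdh 3' minus 5' difference was 0.48, 2.25 and 1.61 on the Spic-negative, Spic-positive and macrophage arrays. That of Actb was 0.74, 0.57 and 1.13, highest on the macrophage array. The part of RNA quality in the disagreement was not tested.

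Counted over probe sets, the picture was as follows. In Spic-positive against Spic-negative monocytes, 1 of 24 member probe sets was at least 2-fold higher (3.19% of all probe sets above the floor), that of Bhlhe40, and 3 were at least 2-fold lower (5.10%), all of Tcf4. In macrophages against Spic-negative monocytes, 6 were higher (16.9%), among them all 3 of Id2, and 6 were lower (14.8%), among them 4 of Zeb2. In macrophages against Spic-positive monocytes, 4 were higher (19.9%), all of E-protein genes, and 5 were lower (14.7%), namely Id3 and 4 of Zeb2. Probe sets of 1 gene share their RNA and are not separate observations. Spic-positive monocytes lay between the other arrays for 14 of 24 member probe sets, against 39.5% of all probe sets, and for 4 of 8 genes, namely Bhlhe40, Id2, Id3 and Tcf3, against 39.3% of all genes.

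The genes around the 9 members were read from 6 lists, each described by the genes above the floor and by the rule that named genes have all their probe sets moving one way. A difference from a level below the floor depends on the background signal. The counts of these lists, and of the cell markers, are to be read beside the shares of the 12375 compared genes past the same 2-fold limit. Between the monocytes, 3.49% of these genes were higher in Spic-positive cells and 3.06% lower. In macrophages, 19.6% were higher and 11.3% lower against Spic-negative monocytes. Against Spic-positive monocytes the macrophage shares were 22.0% and 11.6%. The first list held partners and cofactors of E proteins, of which 11 of 15 were above the floor. Between the monocytes 0 were 2-fold apart. In macrophages against Spic-negative monocytes 2 were higher and 3 lower, and the median was -0.76, and the same counts held against Spic-positive monocytes with a median of -0.40. Tal1 and Gata1, which form a complex with E proteins in erythroid cells, were the higher ones. Tal1 was at 6.07, 5.46 and 8.85, and Gata1 at 5.02, 5.05 and 7.59. Gata1 is also among the erythroid markers given above, which were higher on the same array. The lower ones were Cbfa2t3, a corepressor of the same complex, at 9.25, 9.15 and 6.35, Lyl1, a bHLH partner related to Tal1, at 10.67, 11.02 and 8.58, and the coactivator Ep300 at 10.27, 10.42 and 9.12.

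Genes of BMP and TGF-beta signalling, which induces Id genes in many cells, were above the floor for 27 of 31. Against Spic-negative monocytes, macrophages had 7 of them higher and 4 lower by 2-fold, and the median was -0.09. Against Spic-positive monocytes 6 were higher and 3 lower, and the median was 0.03. Bmp2, a ligand, was under the floor in both monocytes, at 4.09 and 4.97, and at 8.32 in macrophages. Acvrl1, a type I receptor, was at 7.99, 7.25 and 10.31. The ligand Tgfb1 was at 9.16, 9.01 and 7.58, and Bambi, a decoy receptor, at 8.57, 8.79 and 7.04, both lowest in macrophages. Between the monocytes 0 were higher and 1 lower, Acvr1, and the median was -0.11. Acvr1, a type I receptor named because the count is small and whose probe sets disagreed, from -1.10 to 0.89, was at 8.54, 7.44 and 7.98. The ligands and receptors named here did not share 1 direction, and whether they bear on Id1 or Id3 was not tested.

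Clock genes, the circuit in which Bhlhe40 and Bhlhe41 act, were above the floor for 17 of 18 measured. Against Spic-negative monocytes, 4 were higher and 4 lower in macrophages, and the median was 0.11, and against Spic-positive monocytes 4 were higher and 3 lower, and the median was 0.33. Nr1d1, a nuclear receptor repressor, was under the floor at 3.86 and 4.07 in the monocytes and at 7.89 in macrophages. Dbp, a transcription factor driven by CLOCK and BMAL1, was at 6.69, 6.51 and 9.34. In the other direction, Nfil3, which represses at the sites that Dbp activates, was at 12.29, 11.54 and 9.61, and Per1, a repressor of CLOCK and BMAL1, at 11.60, 11.07 and 9.45. No source used here gives the time of day at which the cells were taken. Between the monocytes 0 were higher and 2 lower, Cry1 and Clock, and the median was -0.19. Cry1 was at 8.14, 6.95 and 6.31, and Clock, which is named because the count is small and whose probe sets disagreed, at 8.07, 6.97 and 7.95.

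Corepressors and target genes of ZEB factors were above the floor for 17 of 18. Between the monocytes 0 were 2-fold apart, and the median was -0.14. In macrophages against Spic-negative monocytes 4 were higher and 3 lower, and the median was 0.44, and against Spic-positive monocytes 5 were higher and 1 lower, and the median was -0.01. Cdh1, the E-cadherin gene that ZEB factors repress in epithelial cells, was under the floor in both monocytes, at 2.98 and 2.93, and at 6.26 in macrophages. Zeb1, the paralog of Zeb2, was at 6.72, 6.38 and 7.94, highest in macrophages on each of its 3 probe sets above the floor. Rbbp7, a subunit of the NuRD corepressor complex, was at 9.80, 10.36 and 12.18. Gatad2b, another NuRD subunit, was at 8.23, 7.89 and 6.67, the lowest level being in macrophages.

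Target genes of E proteins, known mainly from lymphocytes, were above the floor for 13 of 18. In Spic-positive against Spic-negative monocytes 5 were at least 2-fold higher and 0 lower, and the median was 0.60. All 13 were above the floor on the Spic-positive array, but only 8 on the Spic-negative array. Of the 5 higher genes, all but Spib (Ebf1, Cd79a, Gfi1 and Cxcr5) were under the floor on the Spic-negative array. The count and the median therefore depend in part on background signal. Spib, a transcription factor of B cells and plasmacytoid dendritic cells, was at 5.53 on the Spic-negative array, 7.99 on the Spic-positive array and 7.0 on the macrophage array. Ebf1, a B cell factor, was at 4.24, 5.69 and 4.0, above the floor only on the Spic-positive array. Gfi1, a repressor, was at 3.50, 5.09 and 6.31. This list shares Cd79a, Ebf1 and Pax5 with the B cell markers, of which 10 of 12 were at least 2-fold higher on the Spic-positive array. Macrophages against Spic-negative monocytes had 7 higher and 2 lower, and the median was 1.06, and against Spic-positive monocytes 4 were higher and 3 lower, and the median was -0.14. Il7r, a cytokine receptor gene that also stands among the T cell markers, was at 5.30, 5.99 and 8.38. Cdkn1a, a cell cycle inhibitor gene, was at 11.98, 11.46 and 10.03, and the receptor gene Notch1 at 9.84, 9.0 and 7.52. Both were lowest in macrophages. Of 11 T cell markers, 6 were at least 2-fold higher on the macrophage than on the Spic-negative array, with summed levels of 52.9, 54.9 and 68.3. Cd3g, Cd247 and Cd28 were under the floor on both monocyte arrays.

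Other bHLH factors were above the floor for 27 of 30. Between the monocytes 2 were higher and 1 lower, and the median was -0.05. Set against Spic-negative monocytes, 8 were higher in macrophages and 9 lower, and the median was -0.60, and against Spic-positive monocytes 5 were higher and 6 lower, and the median was -0.15. Myc, a driver of growth, was at 5.94, 7.50 and 8.79, in the same order of arrays as Bhlhe40, and its partner Max was at 7.93, 8.04 and 6.61. Mycl, a relative of Myc expressed in dendritic cells, was at 4.52, 5.86 and 5.98. Usf1, an activator that binds CACGTG, was at 9.34, 8.12 and 7.85, and Ahr, a ligand-activated factor, at 11.04, 10.24 and 9.08. Usf1 was highest in Spic-negative monocytes on both of its probe sets above the floor, and Ahr was lowest in macrophages on both of its probe sets. Hes1, a target of Notch signalling, was at 8.13, 7.81 and 9.31, and Tfec, a factor of myeloid cells, at 6.87, 7.79 and 8.72. Of 10 dendritic cell markers, 3 were higher by 2-fold or more on the Spic-positive than on the Spic-negative array and 0 lower, with summed levels of 67.4, 76.0 and 74.1. Xcr1, which defines a class of dendritic cells, was under the floor on all arrays, and Zbtb46 was at 4.11, 5.35 and 6.60. Ccr7, at 5.85, 9.90 and 7.90, and Itgax, at 7.27, 10.41 and 8.50, were highest on the Spic-positive array.

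**Figure D4:**
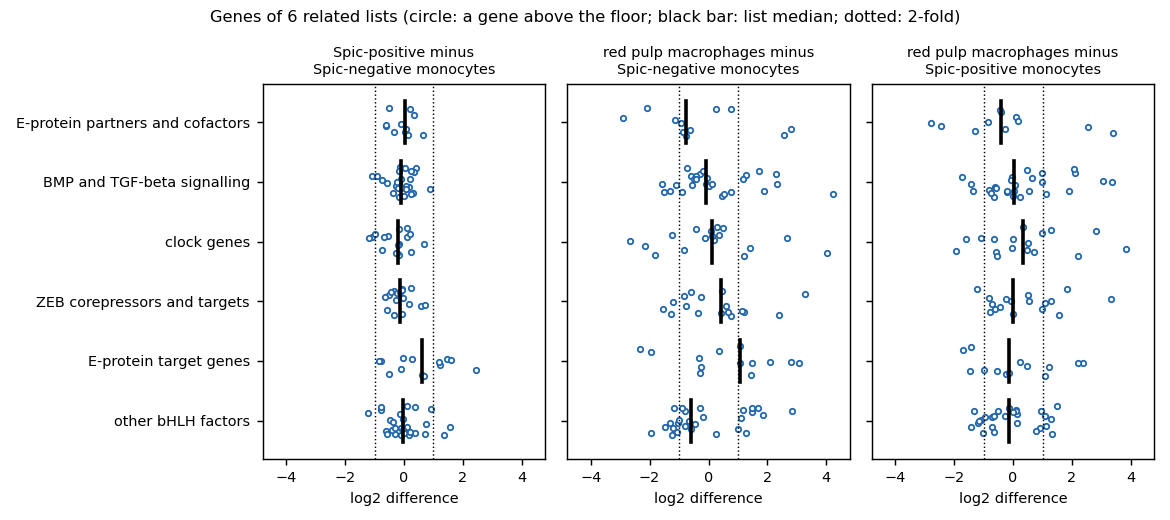
Log2 difference (horizontal axis) of each gene above the floor in the 6 lists (vertical axis) for the 3 comparisons; each circle is a gene, the black bar is the median of the list and dotted lines mark 2-fold. The E-protein target genes have the median furthest to the right in the monocyte panel, at 0.60, but only 8 of these 13 genes were above the floor on the Spic-negative array. The lists spread in both directions in the macrophage panels.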

How the data were processed

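Per the labels, total RNA was purified on columns and labelled as biotinylated cRNA in 2 amplification cycles. The authors made the deposited log2 values per probe set with RMA, per the submitters' processing notes. These values, which run from 1.82 to 14.50, were read as log2 because no source names the scale, and the RMA version is likewise not given in the sources. Quantile normalization inside RMA hides differences in total RNA per cell. Of 45101 probe sets, 64 controls were set aside, 34945 had 1 gene symbol, 932 several and 9160 none here. Symbols were updated by gene identifier with a GRCm38.p6 gene table. A gene took its probe set with the highest mean. Members and lists were chosen with earlier results of these data known. Named were all members, per list and comparison up to 3 genes in each direction at least 2-fold apart with probe sets moving one way, cell markers as examples, and genes near a member spanning log2 2. The calculation of differences was checked on simulated arrays in which every probe set of a changed gene was raised by the same amount. Such data cannot show the effect of probe sets that disagree. Alternatives changed the probe set, scaling, floor and fold. Python 3.11.15, numpy 2.4.6, pandas 2.3.3, matplotlib 3.10.9, R 4.3.3 and limma 3.58.1 (cyclic loess) were used.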

Additional observations from a re-analysis of the deposited data

How the results depend on the processing

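With 1 array per group the number of arrays limits the precision, and no replicate could be left out. No paired analysis was possible because each group had 1 array. Of 234 alternative values of single members, 213 moved by less than 1.5-fold and 21 moved further. Part of the 213 was fixed in advance, because a change of floor alone keeps the value of a gene. The choice of probe set also cannot change Id1, Id3 or Bhlhe40, which have 1 each. The sign changed in 16 of the 234, all of them from values under 2-fold, and 5 of these ended past 2-fold. Those were Tcf4 between the monocytes, from 0.20 to -1.13 both without probe sets ending in _x_at or _s_at and with the second brightest probe set, and Zeb2 in macrophages against Spic-positive monocytes, from 0.10 to -1.38 with the mean of its probe sets, -1.70 with their median and -1.29 with the second brightest. Shares in parentheses are those of all genes under the same setting. With a limit of 3-fold, 0 members were higher in Spic-positive monocytes than in the Spic-negative ones (1.26%), 1 (Bhlhe40) was higher in macrophages than in Spic-negative monocytes (10.9%), and 0 were lower in macrophages in either comparison (4.88% and 3.98%). With 1.5-fold, 1 member (Zeb2) was lower in Spic-positive monocytes (12.6%), 2 (Id3, Zeb2) were lower in macrophages than in Spic-negative monocytes (22.1%), and against Spic-positive monocytes 4 were higher (Bhlhe40, Id2, Tcf12, Tcf3; 33.4%) and 2 of 8 lower (Id3, Tcf4; 24.5%). Id3 and Zeb2, 2 members, were lower in macrophages than in Spic-negative monocytes when probe sets were averaged (10.6%) or their median was taken (12.3%), and likewise against Spic-positive monocytes (10.04% and 11.4%). With the median, 1 (Tcf3; 19.7%) was higher in macrophages than in Spic-positive monocytes, as was 1 (Id2; 21.3%) after cyclic loess and 3 (Id2, Tcf12, Tcf3; 24.98%) after centring arrays on their medians. Without probe sets ending in _x_at or _s_at, 1 (Tcf4; 3.31%) was lower in Spic-positive monocytes. The second brightest probe set, an alternative chosen after seeing the data, covers 5 genes and so leaves out Bhlhe40 and Id3. With it, 0 were higher (2.66%) and 1 (Tcf4; 6.47%) lower in Spic-positive monocytes, 1 (Id2; 16.4%) was higher and 1 (Zeb2; 16.1%) lower in macrophages than in Spic-negative monocytes, and against Spic-positive monocytes 2 (Tcf12, Tcf3; 20.8%) were higher and 1 (Zeb2; 14.7%) lower. Tcf3 in macrophages against Spic-negative monocytes was at 0.26 with the mean and 0.18 with the median of its probe sets, and at 0.95 after repeated quantile normalization, all under 2-fold. Taking the probe set and floor from the compared arrays alone, also chosen after seeing the data, moved no count past 1.5 times. Scaling moved the share of higher genes among all genes at least 2-fold apart. It was 53.3% between the monocytes as deposited, 42.4% after centring, 61.1% after repeated quantile normalization and 63.3% after cyclic loess, and 65.5%, 73.4%, 56.5% and 65.1% for macrophages against Spic-positive monocytes. Centring moved the median of all genes in that comparison from 0.10 to 0.23, and quantile normalization moved it to -0.03. The cause of these differences was not tested.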
